A study of Arabidopsis thaliana with 6 samples.

Results

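AP2/ERF, WRKY and NAC proteins are plant transcription factors, each family named for its DNA-binding domain. The 32 genes described here are those whose deposited description names 1 of these 3 domains by its InterPro entry, among the 1336 genes that the authors list as changed in sams3 seedlings. They are 21 AP2/ERF genes, 5 WRKY genes and 6 NAC genes, and no gene carries more than 1 of the domains. A further 7 listed genes of the AP2/ERF and WRKY families (CBF1, CBF2, CBF3, ERF1, ERF104, WRKY18 and WRKY70) were set aside by the rule and enter only where stated. Membership depends on the description and not on the direction of change, but only genes already past the authors' thresholds can be members, so that each member changed is fixed by the choice and is no result. What can be described is the direction, the size and the company of the changes.

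RNA was sequenced from whole seedlings of Arabidopsis thaliana, 15 days old and grown at 22 °C with 23 h of light a day on agar medium with 20 g/L sucrose. One group was L119, a transgenic line that served as wild type (2 libraries), and the other was sams3, a mutant in S-adenosylmethionine synthetase 3 for which the labels give the same L119 background (2 libraries). The labels used here name neither the transgene of L119 nor the kind of sams3 allele, and they do not say that the libraries of a genotype came from separate cultures. The values available are the authors' log2 fold change and p-value for each gene past their thresholds, a change of 2-fold or more and a p-value under 0.0001. No value per library, no standard error and no level was used, sequencing depth is unknown, and a gene outside the lists is called not listed, which is not the same as unchanged.

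S-adenosylmethionine is the methyl donor for DNA, histones and many small molecules in the cell, and in plants it is also the precursor of ethylene. Many AP2/ERF factors act in ethylene, jasmonate, cold and drought responses; the ERF branch is known for binding the GCC box and the DREB branch for binding the dehydration-responsive element. WRKY factors bind the W box and are best known from immunity and leaf senescence. NAC factors, named after NAM, ATAF and CUC, act in organ boundaries, secondary walls, senescence and stress.

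Listed NAC genes were all higher in sams3, whereas the AP2/ERF and WRKY families held both rises and falls. In the authors' deposited table, 14 AP2/ERF genes were higher in sams3 and 7 lower, 4 WRKY genes were higher and 1 lower, and 6 NAC genes were higher and 0 lower. Among all listed genes 66.9% were higher and 33.1% lower. The AP2/ERF share of 66.7% higher was therefore nearly that of the whole list, while the WRKY share was 80% and the NAC share 100%, each from few genes. Because no list of all genes tested was used and genes of a family are not replicates, the difference between the families was not tested.

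**Figure D1:**
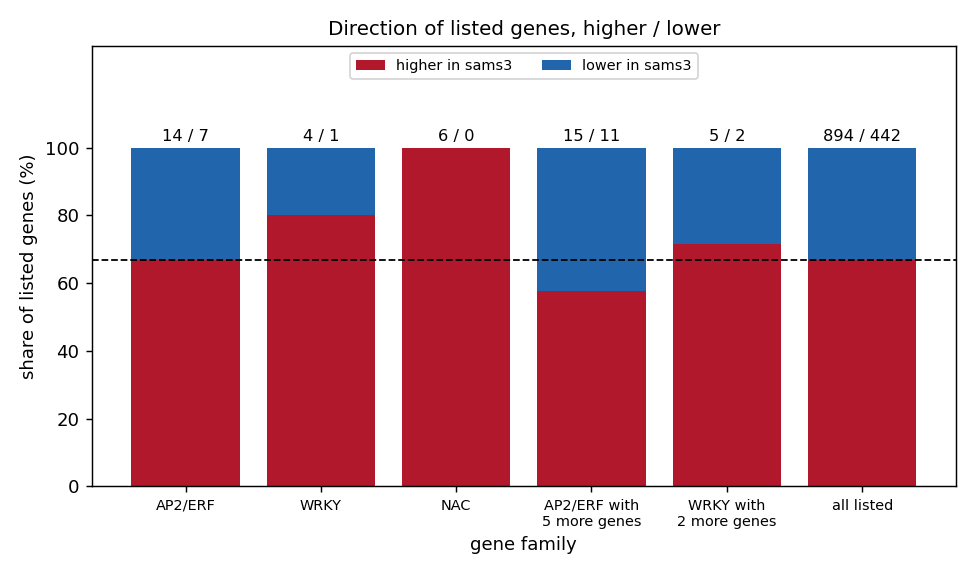
Share of listed genes that were higher (red) or lower (blue) in sams3, with the numbers of higher and lower genes above each bar and the share over all listed genes as a dashed line. The AP2/ERF bar ends at the line with 14 higher and 7 lower genes, all 6 NAC genes are higher, and adding the genes set aside by the rule brings AP2/ERF to 15 higher and 11 lower and WRKY to 5 and 2.

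The AP2/ERF split depended on the genes set aside. Of those 7, 2 were higher and 5 lower in the authors' deposited table. With them counted, AP2/ERF had 15 higher and 11 lower genes, 57.7% higher, and WRKY had 5 and 2, 71.4% higher. The NAC count was the same, since none of the 7 is a NAC gene.

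Rises were larger than falls at the median. Taken from the authors' deposited table, the log2 fold changes had a median of 1.81 over the 24 higher members and of -1.18 over the 8 lower ones, against 1.62 and -1.27 over all listed genes. Of the 24 higher members, 16 lay above the median of listed higher genes, and of the 8 lower members 3 had a larger fall than the median of listed lower genes. An absolute log2 of at least 2 was reached by 6 higher members and 0 lower ones. That is 25% of the higher members, against 32.2% of listed higher genes. For the lower members it is 0%, against 13.1% of listed lower genes. The share of large changes was thus smaller among members in both directions, from few genes and untested. With the 7 set-aside genes counted, 1 of 13 lower genes reached that size, ERF104 (-2.09 in the authors' deposited table). The median of the lower genes was then -1.22. Taken over all 1336 listed genes, such higher genes were 21.6% and such lower genes 4.34%. Member values stayed between -1.51 and 3.64, far inside the range of the list, -6.28 to 9.74.

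**Figure D2:**
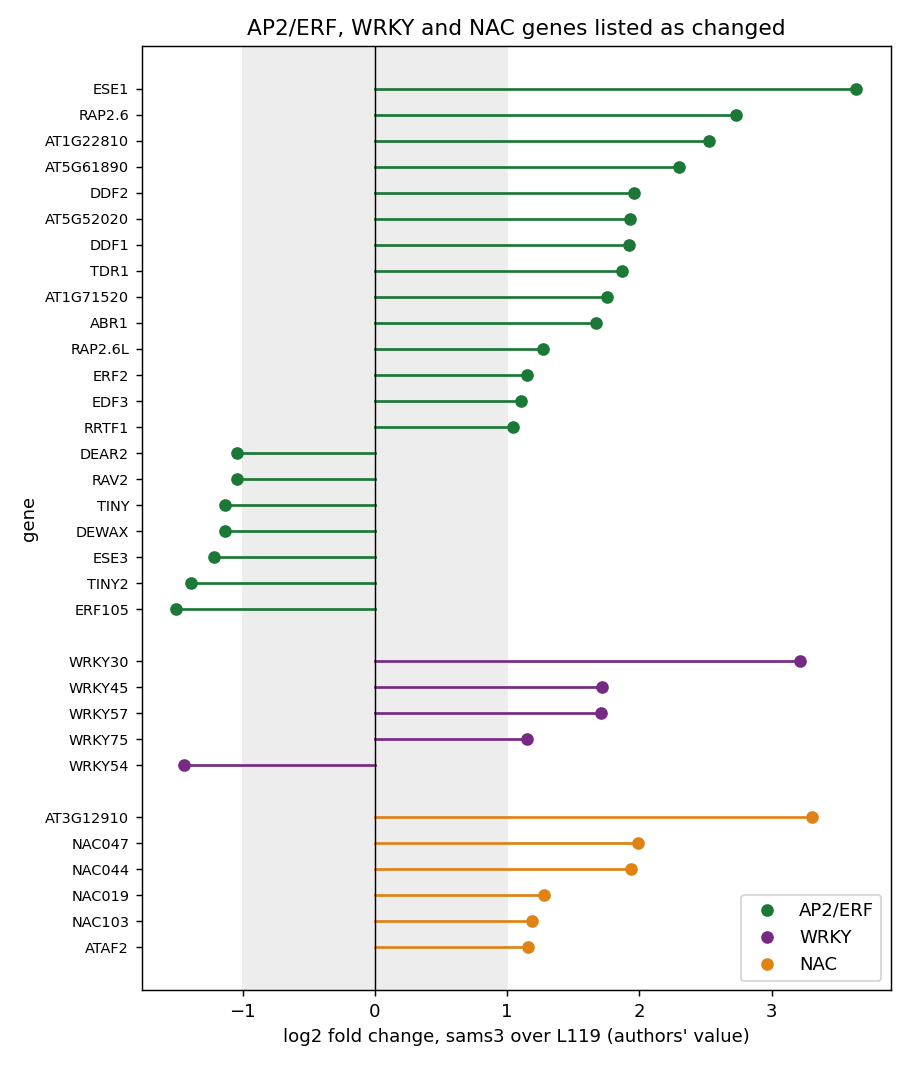
Change of each of the 32 genes by family, as log2 of sams3 over L119 from the authors' deposited table; the grey band marks changes under 2-fold, which the lists do not hold. AP2/ERF genes run from 3.64 (ESE1) to -1.51 (ERF105), WRKY genes from 3.21 (WRKY30) to -1.45 (WRKY54), and NAC genes from 3.31 (AT3G12910) to 1.16 (ATAF2).

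Several of the AP2/ERF genes that rose are close relatives of each other. The deposited descriptions name, for each gene, the Arabidopsis protein most like its own, and 4 of the members share 1 such match, AT5G61890, which is itself a member. All 5 rose. RAP2.6 led this set in the authors' deposited table (log2 2.73, p = 4.5e-25); it is a factor known to respond to jasmonate, abscisic acid and salt. AT5G61890 followed at 2.3 in the authors' deposited table. ABR1, a repressor of abscisic acid responses, stood at 1.67 and RAP2.6L, known from shoot regeneration and wound repair, at 1.27 in the authors' deposited table. RRTF1 (ERF109), a redox-responsive factor that links jasmonate to auxin in roots, had the smallest rise of the set at 1.04 in the authors' deposited table. A list of known factors of wounding, oxidative stress and regeneration covers this branch, one of several such lists fixed with earlier results of these data in view. Over all protein-coding loci of the reference table, 4.68% were listed in either direction, the share against which the counts of these lists are to be read; the lists are small, and none was tested. Of its genes, 2 of 5 that matched were higher (RRTF1 and ABR1) and 0 lower. The names ERF112, ERF113, ERF114 and WIND3 of that list were not matched in the reference table, so the list covers the set only in part. RAP2.6, RAP2.6L and AT5G61890, all higher, are not among its matched genes, and its count leaves them out.

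DREB factors, the dehydration and cold branch, went both ways. DDF1, which lowers gibberellin by activating a gibberellin-inactivating enzyme, and its close relative DDF2 had nearly the same rise in the authors' deposited table, 1.92 (p = 1.64e-97) and 1.96. TINY, a factor at the crossing of drought and brassinosteroid responses, and its close relative TINY2 both fell, with -1.13 and -1.39 (p = 9.85e-06) in the authors' deposited table. DEAR2, a DREB protein with a repression motif, was at -1.04 in the authors' deposited table. Of the 16 genes in the fixed list of DREB factors other than CBF1, CBF2 and CBF3, 2 were higher and 2 lower and 12 not listed, among them DREB2A, DREB2B and ABI4. The lower DEAR2 is not in that list. Neither are AT1G22810, AT1G71520 and AT5G52020, all higher, which are not placed in a branch here. The even split therefore holds only for the 16 genes of the list and is no count of all DREB members. The CBF genes, set aside here, were all lower, at -1.20, -2.0 and -1.83 for CBF1, CBF2 and CBF3 in the authors' deposited table. CBF factors and the DDF factors belong to the same DREB subgroup, and their listed directions were opposite.

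Factors of the ethylene and jasmonate branch were also split. ESE1, an ethylene- and salt-inducible factor, had the largest rise of all 32 genes in the authors' deposited table (log2 3.64). Its p-value in the authors' deposited table, 4.98e-06, is among the weaker ones of the list, at place 815 of 894 higher genes, whereas its fold is at place 96. TDR1 (ERF98), known from ascorbate synthesis and salt tolerance, stood at 1.87 and ERF2, an activator at the GCC box, at 1.15 in the authors' deposited table. In the reference gene order ESE1, TDR1 and the set-aside ERF1 (1.98 in the authors' deposited table) are direct neighbours, a run of 3 higher genes.

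The falls of this branch were those of ERF105 and DEWAX. ERF105, a relative of ERF104 with a role in freezing tolerance, had the largest fall of any member in the authors' deposited table (log2 -1.51, p = 2.11e-92). DEWAX, a repressor of cuticular wax synthesis, was at -1.14 in the authors' deposited table and is the direct neighbour of ERF104 (-2.09), which is the closest match of ERF105. ESE3, named as ethylene and salt inducible like ESE1, went the other way, at -1.22 (p = 6.11e-15) in the authors' deposited table. Its closest match, SHN1, a known activator of wax synthesis, was not listed. In the fixed list for ethylene, jasmonate and pathogen response, 2 of 11 genes were higher (ERF2 and TDR1), 2 lower (ERF105 and DEWAX) and 7 not listed, with ERF5, ERF6 and ORA59 among the last. ESE1 and ESE3 are not in that list, so this split too holds only for the 11 genes counted.

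Other AP2/ERF members include 2 genes with a second DNA-binding domain, B3, of the RAV type. EDF3, an ethylene response factor of this type, rose by 1.1, and RAV2 (TEM2), a repressor of the flowering gene FT, was at -1.05 in the authors' deposited table. Neither RAV1 nor TEM1, the closest matches of these genes, was listed. The remaining members have no name in the reference used. AT1G22810 (log2 2.53, p = 2.39e-22 in the authors' deposited table) and AT1G71520 (1.76) are each other's closest match. AT5G52020, which the deposited description links to defence against fungi, was at 1.93 with the smallest p-value of all members in the authors' deposited table, 7.01e-102.

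Of the 5 WRKY genes, 4 rose, which for so few genes is near the 66.9% higher among all listed genes. WRKY30, a stress-induced factor known from oxidative stress tolerance, had a log2 of 3.21 (p = 1.01e-30) in the authors' deposited table. WRKY45 (1.72, p = 1.73e-50) and WRKY75 (1.15) in the authors' deposited table are each other's closest match, and both are known from phosphate starvation, WRKY75 also as a promoter of leaf senescence. WRKY57, known from drought tolerance and from repression of jasmonate-induced senescence, was at 1.71 (p = 2.48e-77) in the authors' deposited table.

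WRKY54 was the member of its family that fell, at -1.45 (p = 6.88e-15) in the authors' deposited table. WRKY54 and WRKY70 are known to act together as negative regulators of senescence and in salicylic acid signalling. WRKY70, the closest match of WRKY54 and one of the genes set aside, was also lower (-1.04 in the authors' deposited table). Of 25 WRKY factors in the fixed list of pathogen response, 3 were higher, 1 was lower and 21 were not listed. WRKY33, WRKY40, WRKY46 and WRKY53, which are central to the early immune response, are among those not listed. WRKY18, one of the genes set aside and not in that fixed list, was higher (1.69 in the authors' deposited table). Counted by name in the reference table, 7 of 72 numbered WRKY loci were listed in either direction, the set-aside genes included. That is 9.72%, against the 4.68% of all protein-coding loci. This comparison was not tested, and which of these loci were expressed or tested by the authors is not known here.

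All 6 NAC genes rose, and they have different known roles. AT3G12910, which has no name in the reference used and whose closest match is the longevity factor NAC042 (JUB1), had the largest rise in the authors' deposited table (log2 3.31, p = 4.48e-09). NAC047 (SPEEDY HYPONASTIC GROWTH), which drives upward leaf movement in waterlogged plants, was at 1.99 (p = 1.9e-52) in the authors' deposited table. NAC044, known from the arrest of the cell cycle after DNA damage, was at 1.94 (p = 3.18e-15) in the authors' deposited table. The authors' deposited table gives smaller rises for NAC019 (1.28), a jasmonate and abscisic acid factor that limits salicylic acid, NAC103 (1.19), a factor of the unfolded protein response, and ATAF2 (1.16), a wound-induced factor.

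In 3 of the 4 fixed lists of NAC factors no matched gene was listed. The lists for senescence (9 matched genes, among them ORE1, NAP and ATAF1), secondary wall (13 genes) and meristem and organ boundary (5 genes) each had 0 higher and 0 lower genes. At 4.68% of loci listed, lists this small would hold few or no listed genes. Their symbols without a usable match (ORS1, VND6, SMB, BRN1 and BRN2) were left out of the counts. In the list for drought, abscisic acid and jasmonate response, 2 of 9 were higher (NAC019 and ATAF2) and 0 lower, with RD26 and NAC055 not listed. AT3G12910, NAC047, NAC044 and NAC103, all higher, are not among the matched genes of the 4 lists, and these counts leave them out. Of 100 loci with a numbered NAC name in the reference table, 5 were listed, or 5%, close to the 4.68% of all protein-coding loci. For 3 further AP2/ERF groups, the repressors with an EAR motif (8 genes), the hypoxia factors (5) and the cytokinin response factors (6), the count was also 0 in both directions, and among 18 AP2 and RAV genes it was 1 higher and 1 lower.

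**Figure D3:**
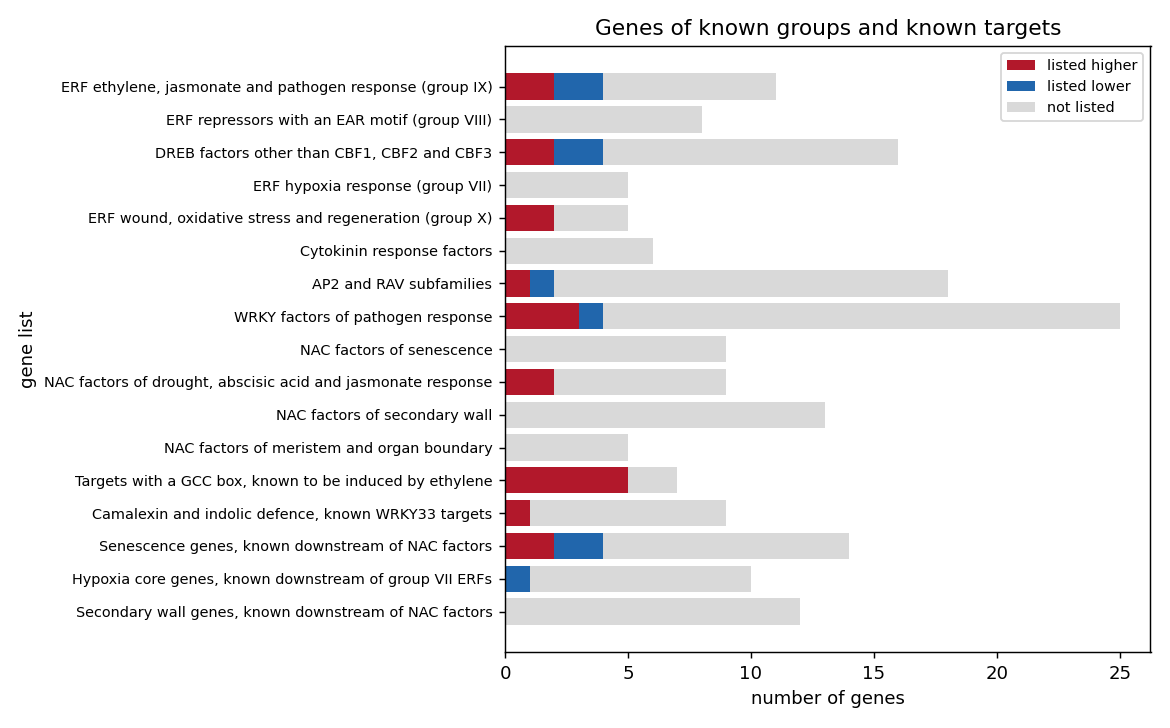
Number of genes listed as higher (red), listed as lower (blue) and not listed (grey) in each list of known groups of the 3 families and of their known targets. Most genes of each family group are grey, and of the 7 targets with a GCC box 5 are red. The ethylene and DREB lists hold 2 higher and 2 lower genes each. They leave out members of both directions, ESE1, ESE3 and DEAR2 among them.

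The closest matches of the members can be set beside them only where the match is itself listed. Such a match was found for 15 of the 32 members (46.9%), against 22.8% of the other listed genes with a match. These cases share genes, since pairs count from both sides and 4 members have the same match. In all 15 the gene and its match had the same direction, and over the other listed genes this held in 246 of 267 cases (92.1%), so a shared direction was usual across the whole list. For the members without a listed match there is no value to compare, and wider relatives differed, as did EDF3 from RAV2 and the DDF from the CBF genes. By family, 12 of 21 AP2/ERF and 3 of 5 WRKY members had a listed match, and 0 of 6 NAC members did. Between members there were 4 pairs in which each gene was the closest match of the other. They were DDF1 with DDF2, TINY with TINY2, WRKY45 with WRKY75, and AT1G22810 with AT1G71520. Differences in log2 within these pairs in the authors' deposited table were 0.04, 0.26, 0.57 and 0.77. ERF105 with ERF104 and WRKY54 with WRKY70 were such pairs too, each with a gene set aside by the rule. Reads from similar copies can be assigned to either gene, how the authors counted them is not stated in the sources at hand, and the part of this in the shared directions was not tested.

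**Figure D4:**
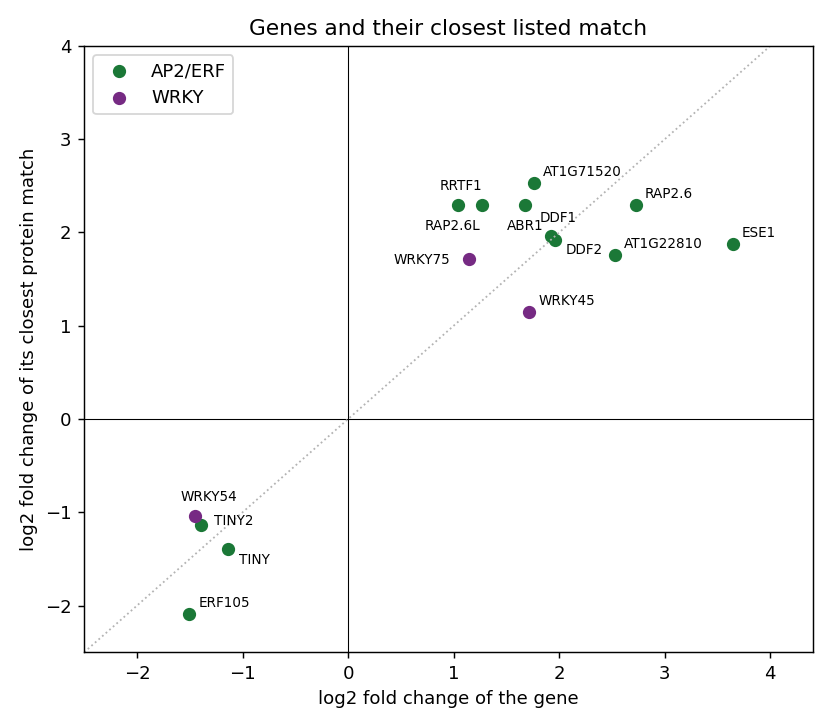
Log2 fold change of each member (horizontal) against that of its closest protein match (vertical), for the 15 members whose match is listed, with equality as a dotted line. All points lie in the quadrants where both values are positive or both negative; DDF1 and DDF2 lie nearly on the line.

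Size and p-value did not go together in every member. ESE1 and AT3G12910 had folds at places 96 and 116 of 894 higher genes and p-values at places 815 and 696 in the authors' deposited table. RRTF1 showed the reverse, with a fold at place 852 and a p-value at place 230. WRKY30, at places 120 and 351, lay between these cases. Of the 32 members, 29 had a p-value in the authors' deposited table below 1.31e-06, which a Bonferroni correction over 38094 reference loci gives. ESE1, TINY and TINY2 did not. The expression levels behind these values were not used.

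**Figure D5:**
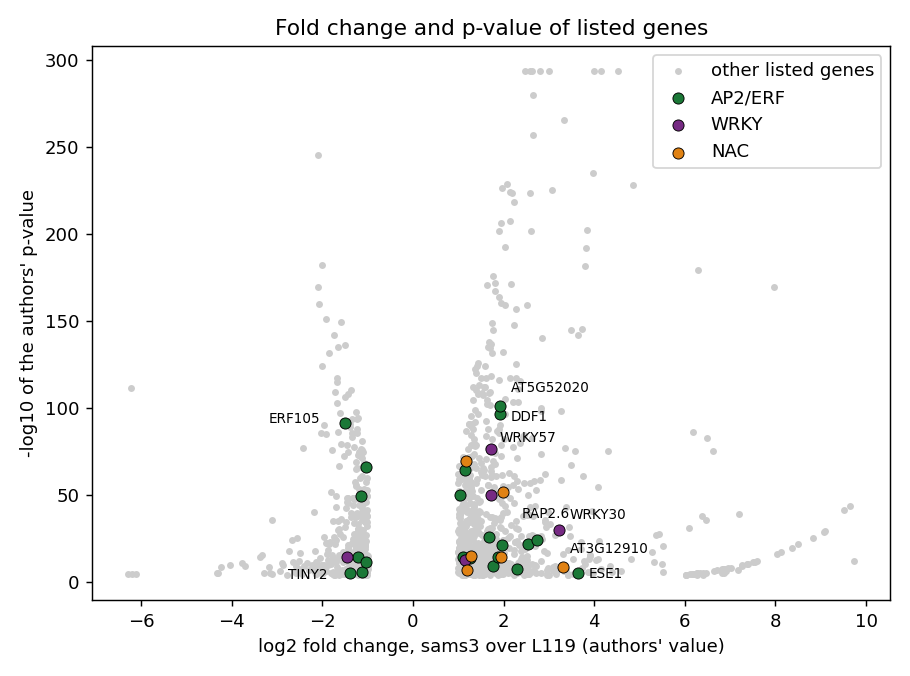
Log2 fold change (horizontal) against −log10 of the p-value (vertical) of the 1336 listed genes, both from the authors' deposited table, with members in colour and other listed genes in grey; the 7 genes listed with a p-value of 0 are drawn at the smallest non-zero value. ESE1 and AT3G12910 combine large rises with weak p-values, and AT5G52020, DDF1 and ERF105 have the smallest p-values of the members.

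Known targets of these factors were counted in the same way, against the 4.68% of protein-coding loci listed. Of 7 defence genes with a GCC box, 5 were higher and 0 lower. Some of these rises were known when the list was written. The plant defensin genes PDF1.3 and PDF1.2c stood at log2 6.28 and 2.69 in the authors' deposited table; these defensin genes are near-identical copies, so their single values are uncertain. Camalexin and indole defence genes known as WRKY33 targets had 1 of 9 higher, the glutathione transferase gene GSTF6 (1.73 in the authors' deposited table), and 0 lower. Of 14 senescence genes downstream of NAC factors, 2 were higher and 2 lower. SAG13 (3.34) and NYE2 (1.42), a gene of chlorophyll breakdown, were higher in the authors' deposited table. SAG12 (-6.28) and GLK2 (-1.13), a factor of chloroplast development, were lower there. The list mixes senescence genes with factors of chloroplast development, so these directions are not to be read as an even split. The authors' p-value was 2.21e-05 for SAG12, against 4.86e-67 for GLK2, and the level behind the large fall of SAG12 was not used. Hypoxia genes had 0 higher and 1 lower of 10, the sucrose synthase gene SUS4 (-1.03 in the authors' deposited table), and of 12 secondary wall genes 0 were listed.

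Markers of organs were looked at beside these counts, since a change in organ makeup would change whole-seedling values. In bulk RNA, fewer cells of a type and less RNA per cell cannot be told apart. Against the 4.68% of protein-coding loci listed, 0 of 11 matched root markers were listed, a count that many lists of that size would show, and of 12 leaf photosynthesis markers 2 were lower (LHCB2.1 and LHCB2.2) and 0 higher. Flower and seed markers had 4 of 13 higher, the seed storage genes SESA1, SESA2, SESA3 and CRA1, and 2 lower, AP1 and FUL. The part of organ makeup in the changes of the 3 families was not tested, and levels that would check the seedling label were not used.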

How the data were processed

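The authors deposited, for the RNA libraries of sams3 and L119 (2 each), lists of changed genes with a log2 fold change and a p-value per gene; per the file headers, the thresholds were a 2-fold change and a p-value under 0.0001. No header or label says that p was adjusted. Bismark, Bowtie2, edgeR and TAIR10 stand in the submitters' processing notes, without roles or versions. Bisulfite libraries (1 per genotype) were not analysed here. A table headed as transposable elements that rose was identical to the list of higher genes and was not used, and neither was that of elements that fell.

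Members were found by the InterPro entries IPR001471 (AP2/ERF), IPR003657 (WRKY) and IPR003441 (NAC) in the deposited descriptions, which name an InterPro entry for 1072 of 1336 genes; the search was tested on simulated descriptions. Members, gene lists and summaries were chosen with earlier results of these data known. Symbols and the order of genes were read from RefSeq's TAIR10.1 table, which holds 1335 of the 1336 genes and all 32 members; since its name differs from the authors' build, no coordinates are printed. Of the 233 symbols in 20 fixed lists, 14 matched no locus, several loci or another gene and were left out. Repeated loci within a list were counted once. Every member is named, with p-values for the 3 largest rises and falls of each family and the 3 smallest p-values of all members, and others where a sentence needs them. No model was fitted and no test was run, because no values per library were used. Alternatives were larger fold thresholds (absolute log2 of at least 1.5 or 2), a Bonferroni threshold, the 7 set-aside genes counted, neighbours or closest matches counted once, and members found by name. Python 3.11.15, pandas 2.3.3, numpy 2.4.6, scipy 1.17.1 and matplotlib 3.10.9 were used.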

Additional observations from a re-analysis of the deposited data

How the results depend on the processing

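Of 51 alternative values for the counts and shares of the 3 families, 39 stayed within 1.5 times the reported count or within the counting interval of the reported share, 12 moved and 0 reversed. A count could only be labelled as the same or moved, never as reversed. The 0 lower NAC genes could not change in settings that only drop genes, so part of the 39 was fixed in advance. With an absolute log2 of at least 2, AP2/ERF had 4 higher and 0 lower genes (100% higher), WRKY 1 and 0 (100%), and NAC 1 higher. Among all listed genes at that threshold 288 were higher and 58 lower, so most were higher there too. At 1.5, AP2/ERF had 1 lower, WRKY 0 lower and NAC 3 higher genes. Both thresholds leave fewer genes by construction. With the 7 set-aside genes counted, lower genes numbered 11 for AP2/ERF and 2 for WRKY. The Bonferroni threshold, members found by name, and neighbours or closest matches counted once (the last chosen after the data were seen) moved no count beyond that range. No paired analysis was possible because no values per library were used, and for that reason no replicate was left out and no other normalization, filter on low values or pseudocount was tried. Depth is unknown.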

Other observations

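Searching by name in place of the domain entry added 2 genes that fell, AT3G06160 (log2 -1.68 in the authors' deposited table) and AT3G06220 (-1.51). Their deposited descriptions call them AP2/B3-like without the AP2/ERF domain entry, so they are not counted above. The same search missed 6 members whose names do not show their family: DDF1, DDF2, RRTF1, ABR1, TINY and TINY2. Process terms are given in the deposited descriptions for 11 of the 32 members and tissue terms for 9, too few to describe the families by them.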
